A study of Mus musculus with 4 samples.

Results

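The genes described here are the cadherins, protocadherins, contactins, contactin-associated proteins, neurexins and neuroligins, taken from the array by their symbols (Cdh, Pcdh, Pcdhb, Cntn, Cntnap, Nrxn or Nlgn followed by a number) wherever a probe set was annotated to 1 symbol only. This gave 70 of the 18193 genes on the array, covered by 133 probe sets. They comprised 21 cadherins, 12 non-clustered protocadherins, 22 protocadherins of the beta cluster, 6 contactins, 4 contactin-associated proteins, 2 neurexins and 3 neuroligins. The rule itself read symbols only. Probe sets of the alpha protocadherin cluster carry many symbols each and so fell outside the rule.

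RNA came from midbrains of adult mice of the Slc6a3 JD1640 TRAP line, 6 to 12 weeks old and of both sexes, with 5 mice pooled for each replicate. In these mice a bacterial artificial chromosome carrying Slc6a3, the gene of the dopamine transporter, drives an EGFP-tagged ribosomal protein, eGFP/RPL10a, and every animal used carried it. Translating ribosome affinity purification (TRAP) pulls down the tagged ribosomes and the RNA on them. The TRAP fraction (replicates 2 and 4) was compared with input RNA of the whole midbrain dissection (replicates 1 and 2), which the labels call unbound (total), so each fraction had 2 arrays. The transgene was made on an FVB background and bred to C57BL6/J, there was no other genotype or treatment, and the tagged cells are those in which this transgene is active. TRAP replicate 4 has no input array of its own number, and the replicates number 2 of both fractions are the only ones that share a number. Levels are linear expression units from the deposited log2 values, and a gene counted as above background when both arrays of at least 1 fraction reached 50 units. Folds and log2 fold changes are TRAP over input, and differences were tested with limma across all 45037 probe sets with Benjamini-Hochberg adjustment at 0.05. Probe sets under background were fitted too and many passed, among them 15 of the 27 adhesion genes not above background. Their spread was often 0 or close to it, which loosens the adjusted threshold for the rest. An adjusted p under 0.05 therefore does not set the false discovery rate among genes above background. Each gene is represented by its probe set with the highest mean level. The p-values measure the spread between arrays of a fraction, in which pools of mice, amplification and hybridisation cannot be told apart. The paper states that each replicate also gave a parallel input fraction, so the TRAP and input arrays numbered 2 may come from the same mice. All 4 arrays were nevertheless treated as independent.

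Cadherins are transmembrane proteins whose extracellular repeats bind calcium and pair with cadherins on the next cell, and classical cadherins hold catenins on the cytoplasmic side. Protocadherins are the largest branch of the cadherin superfamily in the brain and take part in axon sorting, dendrite arborisation and synapse formation. Contactins are immunoglobulin-domain proteins held to the membrane by a lipid anchor, and many act with contactin-associated proteins, which resemble neurexins outside the cell. Neurexins sit mainly on presynaptic membranes and bind postsynaptic neuroligins, a pair best known for organising synapses.

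Of the 70 genes, 43 were above background and 27 were not. Of the 43, 4 rose in TRAP RNA: Cdh13, Cdh11, Cntnap4 and Pcdh8. A further 9 fell: Cdh2, Cdh6, Cntn3, Cntn5, Cntnap5a, Pcdh9, Pcdh11x, Pcdh15 and Pcdh20. The other 30 did not pass. The 4 that rose were 9.3% of the 43, against 18.7% of all 10014 genes above background, and the 9 that fell were 20.9%, against 6.87% of all genes. At an unadjusted p of 0.05 the counts were 6 higher and 10 lower, against 27.8% and 10.8% of all genes. Counted without a model, both TRAP arrays were above both input arrays for 19 of the 43 (44.2%, all genes 52.3%) and below both for 13 (30.2%, all genes 23.6%), and the fractions overlapped for 11. These shares carry no test. The median log2 fold change was 0.55 over the 43 genes (27 positive and 16 negative), against 0.44 over all genes above background (6592 positive and 3422 negative). Among those of the 43 at 50 units or more on all 4 arrays, single values ran between -3.33 (Pcdh11x) and 3.91 (Cdh13). Because the median gene was above 0, a small positive log2 fold change is at the level of the array as a whole.

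The calls rest on 2 arrays a fraction. Without input replicate 1, 0 genes rose and 2 fell, and with all values under 50 units raised to 50, 0 rose and 4 fell. Without TRAP replicate 2 or without TRAP replicate 4, 3 of the 13 called genes passed (Cntn5, Pcdh15 and Pcdh8), and without either input array in turn 2 did (Cdh6 and Cntnap5a). In such a fit 1 fraction has a single array, assumed to vary like the other fraction, whose 2 arrays alone give the spread, so these counts depend on how closely those 2 lay. The direction of all 13 stayed as reported in each of these fits. An exact permutation test of 2 against 2 arrays cannot give a two-sided p under 0.333.

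**Figure D1:**
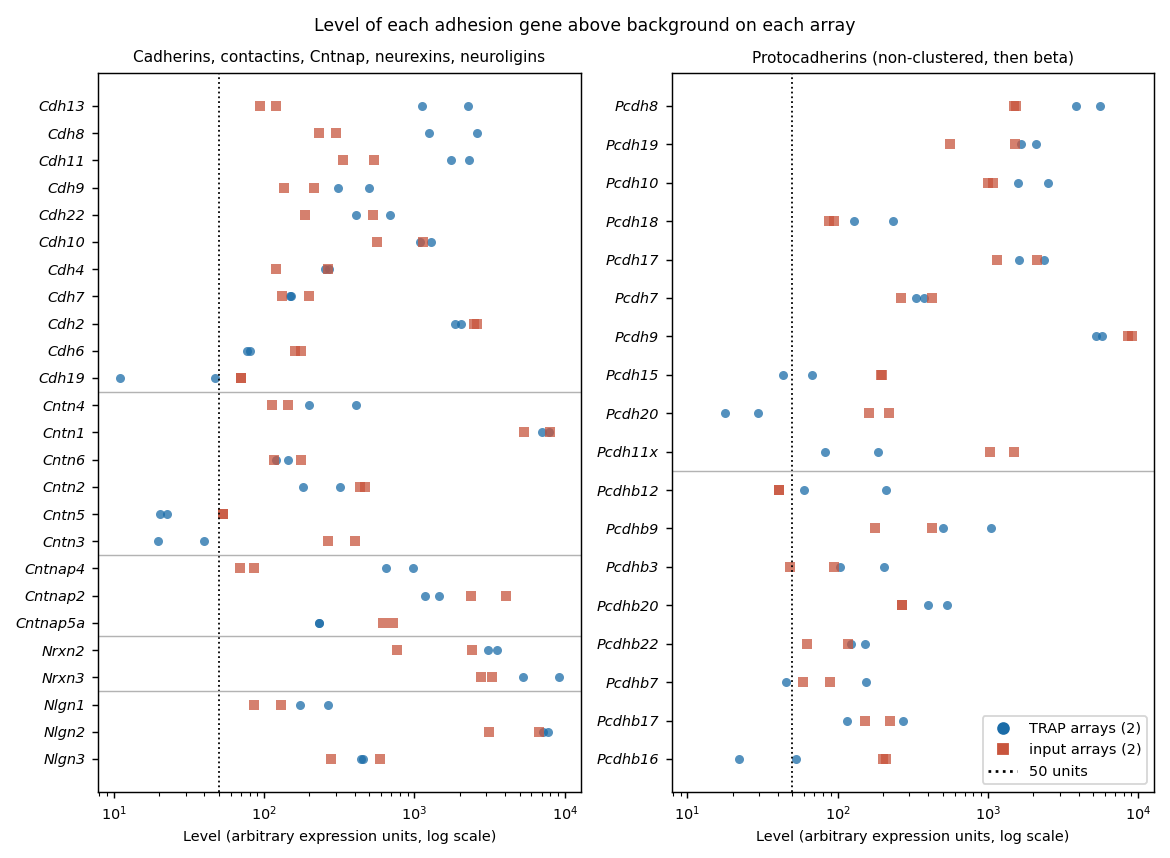
Level of each of the 43 adhesion genes above background on each array, in expression units on a log x axis, 1 row a gene, with circles for TRAP arrays, squares for input arrays and a dotted line at 50 units. For Cdh13, Cntnap4, Cdh11 and Pcdh8 both circles lie to the right of both squares, and for Cntn3 and Pcdh20 both circles lie left of the dotted line.

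The TRAP fraction carried the markers of dopamine neurons. All 8 listed dopamine neuron genes rose, with Th at 16613 and 20947 units in TRAP, against 326 and 386 units in input. Markers of most other cells were lower in TRAP but present: 10 of 10 astrocyte genes were below input on both arrays (summed level 10501 and 6970 units in TRAP, 26646 and 32932 units in input), and so were 8 of 11 oligodendrocyte genes (84908 and 37664 units in TRAP, 105248 and 104693 units in input). Of the GABAergic neuron genes, 2 of 5 were below input on both arrays (9080 and 3729 units in TRAP, 16291 and 9334 units in input). For oligodendrocyte precursors the share was 3 of 3 above background (222 and 285 units in TRAP, 1227 and 1445 units in input). Endothelial and mural genes did so in 4 of 4 above background, 3 more being under it, and summed to 541 and 122 units in TRAP, against 1341 and 1369 units in input. Of 8 microglial genes 5 were not above background in either fraction, and the 3 others summed to 926 and 411 units in TRAP, against 1473 and 3092 units in input. Of the glutamatergic neuron genes 1 was above background, Slc17a6, at 3022 and 1942 units in TRAP and 7106 and 6544 units in input. The serotonergic gene above background, Tph2, was not lower: it had 294 units on both TRAP arrays and 604 and 69.3 units in input, and its input arrays differed 8.72-fold. The part of these cells in the values below was not tested. For Gad1 the paper proposes that non-specific background gave the signal left in TRAP. In these values, RNA carried over from other cells and RNA of the tagged cells cannot be told apart.

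Among the cadherins, 11 of 21 were above background, 2 rose, 2 fell and 7 did not pass (median log2 fold change 0.57). Cdh13 encodes T-cadherin, which lacks the usual transmembrane and cytoplasmic parts and is held by a lipid anchor. It measured 1118 and 2265 units in TRAP and 93.7 and 119 units in input. Both TRAP arrays were far above both input arrays, although the TRAP arrays themselves differed 2.03-fold. The log2 fold change was 3.91 (SE 0.50, limma adjusted p = 0.027), a 15-fold difference and the largest positive one among the 43 genes. A second Cdh13 probe set gave 602 and 1159 units in TRAP, against 83.1 and 149 units in input (log2 fold change 2.91, adjusted p = 0.06, limma).

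The type II cadherins, which pair through a wider interface than type I, did not move as a block. Of 8 above background, 1 rose, 1 fell and 6 did not pass. Cdh11, known from bone and mesenchyme as well as from neurons, had 1744 and 2305 units in TRAP and 541 and 337 units in input. The fractions were well apart, with a log2 fold change of 2.23 (SE 0.37, limma adjusted p = 0.0424, 4.69-fold). A second Cdh11 probe set also passed (log2 fold change 1.43, adjusted p = 0.0244). Cdh8, a cadherin of synaptic adhesion and the next protein-coding neighbour of Cdh11 on its chromosome, measured 1248 and 2591 units in TRAP, against 301 and 233 units in input. Its fractions did not overlap, but the probe set with the highest level missed the threshold (log2 fold change 2.76, SE 0.52, limma adjusted p = 0.0527). Another Cdh8 probe set passed it (log2 fold change 2.96, adjusted p = 0.021), as did the first one in the fit of probe sets above background only (adjusted p = 0.0198).

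Cdh6, described first in kidney and in developing brain, had 77.1 and 80.2 units in TRAP and 160 and 175 units in input. The fractions did not overlap, and the replicates of each lay close together. The log2 fold change was -1.09 (SE 0.07, limma adjusted p = 0.00701), so input was 2.13-fold above TRAP. Cdh9 lies next to Cdh6 with no protein-coding gene between them, and Cdh10 follows it. Their TRAP means were 1.22 and 0.57 above input on the log2 scale and neither passed. Cdh19, known from the Schwann cell lineage, was at 46.8 and 11 units in TRAP, against 70.6 and 69.7 units in input (log2 fold change -1.63, SE 0.97, limma adjusted p = 0.268). With both TRAP arrays under 50 units, only a bound can be given for it: TRAP was at least 1.4-fold lower. The remaining type II members (Cdh7, Cdh10, Cdh22) had overlapping fractions.

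Of 5 type I cadherins, 2 were above background. Cdh2 encodes N-cadherin, the classical cadherin of most neurons and also of glia. It measured 2037 and 1864 units in TRAP, against 2495 and 2588 units in input. The arrays of a fraction were close, so a small difference passed: log2 fold change -0.38 (SE 0.06, limma adjusted p = 0.0433), with input 1.3-fold above TRAP. A second Cdh2 probe set fell further (log2 fold change -1.06, adjusted p = 0.00462). Cdh4, or R-cadherin, had 255 and 270 units in TRAP and 120 and 267 units in input, and the fractions overlapped. E-cadherin (Cdh1), P-cadherin (Cdh3) and M-cadherin (Cdh15), the other type I genes measured, were not above background, nor was Cdh5, the cadherin of endothelial junctions.

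**Figure D2:**
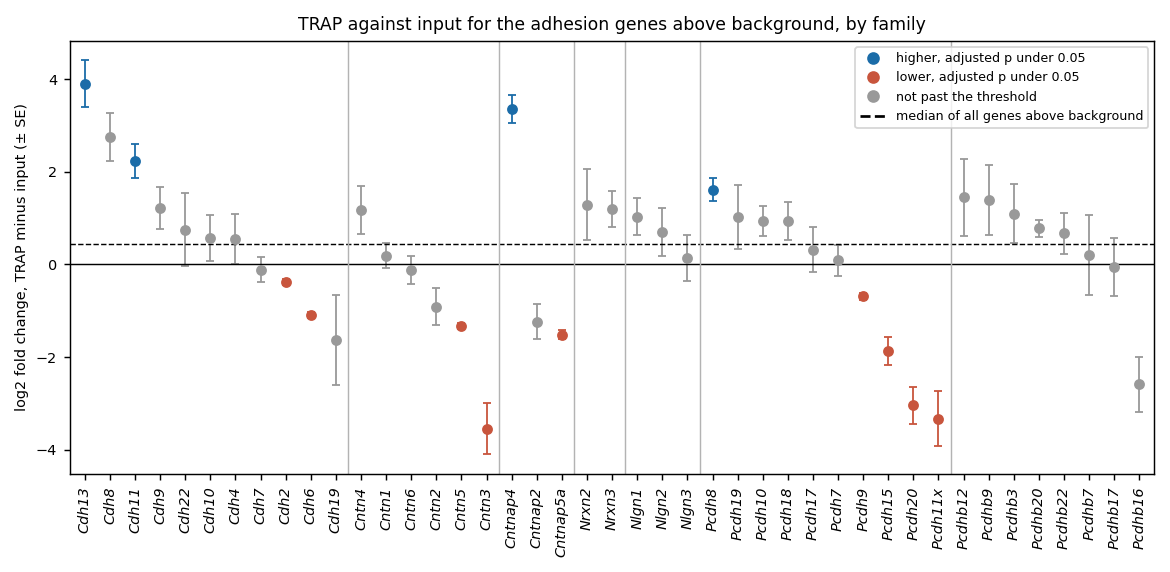
Log2 fold change (TRAP minus input, y axis) of the 43 adhesion genes above background, in columns by family, with bars of 1 standard error, coloured points for genes that passed the test and a dashed line at the median of all genes above background (0.44). Among genes at 50 units or more on all 4 arrays values ran between -3.33 for Pcdh11x and 3.91 for Cdh13, and no beta protocadherin is coloured. Only bounds hold for Cdh19, Cntn3, Cntn5 and Pcdh20 (TRAP under 50 units on both arrays) and for Pcdhb12 (input under 50 units on both arrays).

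The non-clustered protocadherins had 10 of 12 members above background, of which 1 rose, 4 fell and 5 did not pass (median log2 fold change 0.20). Their delta-1 and delta-2 branches, which differ in the number of extracellular repeats and in the cytoplasmic tail, had medians of opposite sign. Their nearest members lay close (Pcdh7 at 0.09 and Pcdh17 at 0.32). All 5 delta-2 members (Pcdh8, Pcdh10, Pcdh17, Pcdh18 and Pcdh19) had positive log2 fold changes, with a median of 0.94, and 1 passed. Of all 10014 genes above background, 6592 were positive. Of 3 delta-1 members above background (Pcdh7, Pcdh9 and Pcdh11x), 2 fell, and the median was -0.69. When the arrays were centred or quantile normalised, 4 of 5 delta-2 and 0 of 3 delta-1 members stayed positive, as Pcdh17 and Pcdh7 turned negative. The difference between the branches was not tested.

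Pcdh8, Pcdh17, Pcdh20 and Pcdh9 lie in this order on mouse chromosome 14 with few other protein-coding genes between them (1, 2 and 0 in turn), yet had measured log2 fold changes of 1.62, 0.32, -3.04 (under 50 units in TRAP) and -0.69. The 150 bases before the start site of each are shown because neighbouring genes of 1 family went different ways. They come from RefSeq (GRCm38.p6), run 5′ to 3′ on the strand of the gene, and have each CG dinucleotide in capitals. Pcdh9 has 2 start sites in the table, and the one farther upstream is given.
Pcdh8, chr14:79771313-79771462 (minus strand): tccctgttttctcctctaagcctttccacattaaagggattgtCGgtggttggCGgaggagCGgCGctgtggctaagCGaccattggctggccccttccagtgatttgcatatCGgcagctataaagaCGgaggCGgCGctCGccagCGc
Pcdh17, chr14:84443413-84443562 (plus strand): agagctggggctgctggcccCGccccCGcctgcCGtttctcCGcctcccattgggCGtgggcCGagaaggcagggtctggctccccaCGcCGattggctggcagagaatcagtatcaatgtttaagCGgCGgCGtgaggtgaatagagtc
Pcdh20, chr14:88471397-88471546 (minus strand): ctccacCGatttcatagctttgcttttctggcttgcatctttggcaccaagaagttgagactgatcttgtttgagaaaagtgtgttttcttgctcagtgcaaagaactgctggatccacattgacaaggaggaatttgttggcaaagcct
Pcdh9, chr14:93890680-93890829 (minus strand): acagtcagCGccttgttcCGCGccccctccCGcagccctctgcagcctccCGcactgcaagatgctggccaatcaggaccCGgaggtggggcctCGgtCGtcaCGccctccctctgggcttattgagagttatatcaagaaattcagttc
In these windows Pcdh8 had 11 CG dinucleotides, Pcdh17 11, Pcdh20 1 and Pcdh9 9. Over 250 upstream bases the counts were 11, 21, 3 and 18, against a median of 6 over 32851 mouse promoters, and 64.4%, 83.7%, 29% and 78.3% of promoters had fewer. Pcdh20 was thus the CG-poor one of the 4, with a GC content of 42.4% (median of all promoters 52.4%). The counts describe the sequence and were not set against expression by any test. The 250 upstream bases of 30 adhesion genes with an entry were also searched on both strands for short cores bound by factors of dopamine neurons. Adhesion genes on the chromosome that carries the beta protocadherins were left out of this search, so it does not cover the whole set. The percentages count promoter entries, of which a gene can have more than 1, whereas matches are counted as genes, so the 2 are not like for like. The Nr4a2 core AAGGTCA, held by 4.08% of all promoters, was found at 1 gene (Cdh18). The Foxa2 core TGTTTAC, held by 3.17% of all promoters, was found at 0 genes. The homeodomain core TAATTA of En1 and Lmx1b, held by 4.84% of all promoters, was found at 2 genes (Cdh7 and Cntn4). The Pitx3 core GGATTA, held by 6.25% of all promoters, was found at 3 genes (Cdh26, Cdh7 and Cntnap2). None of the 7 called genes that were searched held any of the 4 cores, which says only that these letters are not in these windows.

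Pcdh8, an activity-regulated protocadherin also called arcadlin, reached 3862 and 5552 units in TRAP and 1489 and 1528 units in input. Both TRAP arrays were above the tightly paired input arrays, with a log2 fold change of 1.62 (SE 0.24, limma adjusted p = 0.0362, 3.07-fold). The suffix of its probe set (x_at) marks probes that may also bind other transcripts. A second probe set pointed the same way without passing (1004 and 2063 units in TRAP, 430 and 327 units in input, log2 fold change 1.94, adjusted p = 0.0852, limma). Pcdh10, known for its role in forebrain axon pathways and synapse removal, had 1573 and 2510 units in TRAP, against 993 and 1084 units in input. The fractions did not overlap, and the difference did not pass (log2 fold change 0.94, SE 0.32, limma adjusted p = 0.12). A dimmer Pcdh10 probe set did pass, at 194 and 323 units in TRAP and 45.4 and 49.6 units in input, at least 5.00-fold higher (adjusted p = 0.0338, limma). Pcdh19, whose human counterpart is an epilepsy gene, and Pcdh18 had both TRAP arrays above both input arrays and did not pass (log2 fold changes 1.02 and 0.94). Pcdh17 overlapped between the fractions.

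The 4 protocadherins that fell differed in size of change. Pcdh11x, an X-linked delta-1 gene, had 186 and 81.9 units in TRAP, against 1489 and 1030 units in input. Input was 10-fold above TRAP, with a log2 fold change of -3.33 (SE 0.60, limma adjusted p = 0.0498). Another Pcdh11x probe set gave 48.5 units on both TRAP arrays and 447 and 598 units in input. It was at least 10.3-fold lower in TRAP (adjusted p = 0.00604, limma), with a spread that came from the input arrays alone. Pcdh20 was at 29.7 and 17.8 units in TRAP and 221 and 162 units in input. Both TRAP arrays were under 50 units, so TRAP was at least 3.79-fold lower (measured log2 fold change -3.04, SE 0.40, limma adjusted p = 0.0284). Pcdh15, which forms tip links in hair cells of the inner ear and is also expressed in oligodendrocyte precursors, had 43 and 67.2 units in TRAP, against 198 and 195 units in input. The log2 fold change was -1.87 (SE 0.30, limma adjusted p = 0.0401), with 1 TRAP array under 50 units. Pdgfra, the defining marker of oligodendrocyte precursors, stood at 107 and 76.2 units in TRAP, against 718 and 883 units in input, and its part in the Pcdh15 result was not tested. Pcdh9, the neighbour of Pcdh20, measured 5713 and 5265 units in TRAP and 8544 and 9136 units in input. Its log2 fold change of -0.69 (SE 0.07) passed (limma adjusted p = 0.0182), with input 1.61-fold above TRAP.

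The beta protocadherins, single-exon genes of a clustered array that give neurons combinatorial surface identities, showed no call. Of 22 listed, 8 were above background and 14 were not. Of the 8, 6 had positive log2 fold changes (all genes above background, 6592 of 10014), and the median was 0.73. Pcdhb12 had 59.3 and 209 units in TRAP and 40.8 and 40.9 units in input. Its TRAP arrays differed 3.52-fold, and the difference did not pass (at least 2.22-fold higher, limma adjusted p = 0.262). Pcdhb16, the one beta gene above background with both TRAP arrays below both input arrays, stood at 21.9 and 52.5 units in TRAP, against 199 and 209 units in input (log2 fold change -2.59, SE 0.59, limma adjusted p = 0.0721). It and Pcdhb20 were picked out after their values were seen. Pcdhb20 had 400 and 530 units in TRAP and 268 units on both input arrays (log2 fold change 0.78, SE 0.19, limma adjusted p = 0.0805). The genes of this cluster lie side by side and resemble each other closely, so probes of 1 gene may also bind another.

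All 6 contactins were above background, 0 rose, 2 fell and 4 did not pass (median log2 fold change -0.51, or -0.11 with values under 50 units raised to 50). Cntn1, a contactin of nodes and paranodes on myelinated axons, measured 7069 and 7866 units in TRAP and 5356 and 7934 units in input. The fractions overlapped, and its log2 fold change of 0.19 turned to -0.35 after quantile normalisation and -0.22 after centring. Cntn3, also known as BIG-1, had 40 and 19.7 units in TRAP, against 267 and 402 units in input. Both TRAP arrays were under 50 units, so TRAP was at least 6.55-fold lower (measured log2 fold change -3.55, SE 0.55, limma adjusted p = 0.0379). Its probe set is also of the x_at kind that may bind other transcripts. Cntn5, best known from the auditory pathway, was near background on every array, at 20.2 and 22.6 units in TRAP and 53.6 units on both input arrays. It passed (measured log2 fold change -1.33, SE 0.07, limma adjusted p = 0.00567), but the bound is only at least 1.07-fold lower. The input values were identical and TRAP was under 50 units, so the small SE and its p carry little information.

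Cntn2, also called TAG-1 and found at juxtaparanodes and on axons, had 180 and 322 units in TRAP and 472 and 432 units in input. The fractions did not overlap, but the difference did not pass (log2 fold change -0.91, SE 0.40, limma adjusted p = 0.175). Another Cntn2 probe set had 5.36 units on both TRAP arrays and 67.9 and 84.6 units in input. It passed (measured log2 fold change -3.82, adjusted p = 0.0028, limma), but the bound is only at least 1.52-fold lower. Cntn4, which guides olfactory axons, was the contactin with the highest log2 fold change: 199 and 411 units in TRAP, against 145 and 112 units in input (1.17, SE 0.52, limma adjusted p = 0.179). A dimmer Cntn4 probe set had 59.5 and 61.5 units in TRAP and 8.12 units on both input arrays. It passed (measured log2 fold change 2.90, adjusted p = 0.000134, limma), but the bound is only at least 1.21-fold higher. In this Cntn4 probe set and the passing Cntn2 one, 1 fraction held identical values under 50 units, so their p-values carry little information. Cntn3, Cntn6 and Cntn4 are near neighbours on 1 chromosome, with 1 and 0 protein-coding genes between them, and their measured log2 fold changes were -3.55 (under 50 units in TRAP), -0.12 and 1.17.

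The contactin-associated proteins held both directions. Cntnap4, a presynaptic protein of interneurons and dopamine neurons, measured 642 and 977 units in TRAP and 85.1 and 69.5 units in input. The fractions were far apart, at a log2 fold change of 3.36 (SE 0.31, limma adjusted p = 0.0151) or 10.3-fold. Cntnap5a, a little-studied relative, had 233 units on both TRAP arrays and 721 and 620 units in input. Its log2 fold change was -1.52 (SE 0.10, limma adjusted p = 0.00807), with input 2.86-fold above TRAP. The TRAP values were identical, so the spread came from the input arrays alone, and the small SE and its p carry little information. Cntnap2 encodes CASPR2, which gathers potassium channels at juxtaparanodes, and its 2 bright probe sets disagreed. The brighter one had 1177 and 1463 units in TRAP, against 2387 and 4053 units in input (log2 fold change -1.24, SE 0.38, limma adjusted p = 0.103). The other had 1941 and 2461 units in TRAP, against 1204 and 1113 units in input (log2 fold change 0.92, SE 0.17, limma adjusted p = 0.0503). Neither passed, neither overlapped between the fractions, and no direction is given for this gene. Cntnap1, the partner of Cntn1 at paranodes, was not above background on any array.

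Both neurexins measured were higher in TRAP on both arrays, as were 52.3% of all genes above background, and neither passed. Nrxn3 had 5290 and 9139 units in TRAP and 3277 and 2788 units in input (log2 fold change 1.20, SE 0.38, limma adjusted p = 0.108). Another Nrxn3 probe set gave 1151 and 2007 units in TRAP, against 533 and 540 units in input (limma adjusted p = 0.084), and the third a log2 fold change of 0.70 (adjusted p = 0.366). Nrxn2 had 3547 and 3094 units in TRAP, against 768 and 2401 units in input, and its input arrays differed 3.12-fold (log2 fold change 1.29, SE 0.77, limma adjusted p = 0.27). Without input replicate 2 it passed, in a fit whose spread comes from the TRAP arrays alone and which drops the difference between the input arrays.

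The 3 neuroligins had positive log2 fold changes (all genes above background, 6592 of 10014) and 0 passed. Nlgn1, which acts mostly at excitatory synapses, had 173 and 267 units in TRAP and 85.8 and 130 units in input (log2 fold change 1.03, SE 0.40, limma adjusted p = 0.149). Nlgn2, the neuroligin of inhibitory synapses, had 7147 and 7732 units in TRAP, against 3138 and 6704 units in input (log2 fold change 0.70, SE 0.51, limma adjusted p = 0.342). For Nlgn1 and Nlgn2 both TRAP arrays lay above both input arrays. Nlgn3, found at both kinds of synapse, had 439 and 453 units in TRAP and 279 and 588 units in input, so that the TRAP arrays lay between the input arrays. Its log2 fold change of 0.14 (SE 0.50) turned to -0.25 after quantile normalisation and -0.27 after centring.

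The 27 genes not above background were Cdh1, Cdh3, Cdh5, Cdh15, Cdh16, Cdh17, Cdh18, Cdh20, Cdh23, Cdh26, Cntnap1, Pcdh1, Pcdh12 and 14 beta protocadherins (Pcdhb1, Pcdhb2, Pcdhb4, Pcdhb5, Pcdhb6, Pcdhb8, Pcdhb10, Pcdhb11, Pcdhb13, Pcdhb14, Pcdhb15, Pcdhb18, Pcdhb19 and Pcdhb21). Only Pcdhb21 reached 50 units on any array, at 39.7 and 65.8 units in TRAP and 40.1 and 56.4 units in input. For 15 of them the values were identical within both fractions, and p-values there carry no information. A level under 50 units on this array does not show that a gene is silent.

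Of the 43 genes, 18 had 2 or more probe sets above background. In 14 of the 18 these had log2 fold changes of 1 sign, and in 4 (Cdh7, Cntn1, Cntnap2 and Pcdh17) of both signs. Beside the probe sets chosen for the genes, 25 more were above background, of which 4 rose (of Cdh8, Cdh11, Cntn4 and Pcdh10) and 3 fell (of Cdh2, Cntn2 and Pcdh11x). Over all probe sets above background 18.8% rose and 9.13% fell. Of the 13 called genes, only Cdh2, Cdh11, Cdh13, Pcdh8, Pcdh9 and Pcdh11x had a second probe set above background. None of these second probe sets passed in the other direction. For the other called genes no such check was possible.

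**Figure D3:**
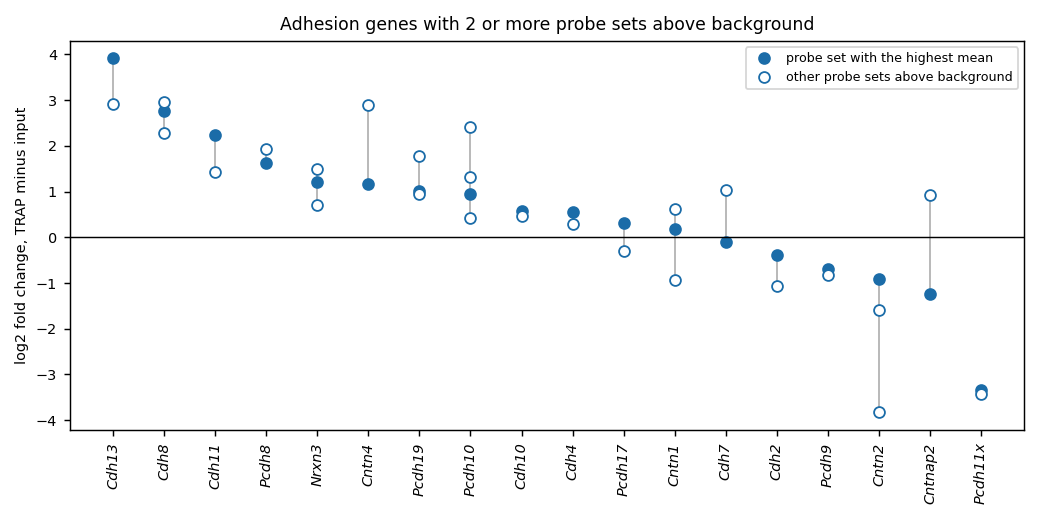
Log2 fold change (TRAP minus input, y axis) of every probe set above background for the 18 adhesion genes with 2 or more, with filled circles for the probe set of the highest mean level and open circles for the others. The probe sets of Cntnap2 lie on both sides of 0, at -1.24 and 0.92.

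The TRAP arrays were not alike for these genes. Replicate 4 of TRAP exceeded replicate 2 for 34 of the 43 and was below it for 8, the median being 0.40 on the log2 scale. Over all genes above background the median was 0.00 (4907 higher and 4814 lower). The beta protocadherins lay above on replicate 4 in 8 of 8 cases, by a median of 1.15. The 4 genes that rose were also higher there in 4 of 4 (median 0.57), and the genes that fell were lower in 5 and higher in 3 of 9, 1 being identical (median -0.12). Markers moved between the same arrays: dopamine neuron genes were higher on replicate 4 in 7 of 8 (median 0.30), and lower were 9 of 10 astrocyte genes (median -0.79), 10 of 11 oligodendrocyte genes (median -1.46) and 5 of 5 GABAergic genes (median -1.19). Their part in the difference was not tested.

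**Figure D4:**
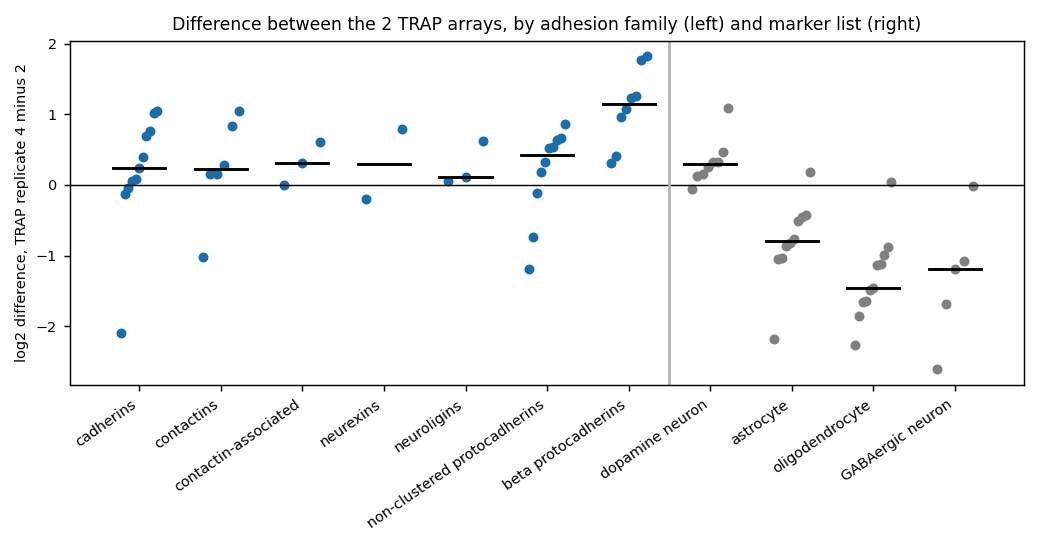
Difference between the TRAP arrays (replicate 4 minus replicate 2, log2, y axis) for the 43 adhesion genes by family (left, blue) and for 4 marker lists (right, grey), 1 point a gene with a bar at the median. All 8 beta protocadherins lie above 0 (median 1.15), and the oligodendrocyte markers lie lowest (median -1.46).

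Genes that work with these families were taken from 5 lists: catenins, other cadherin superfamily genes, other immunoglobulin adhesion molecules, ligands of neurexins and neuroligins with other synapse organisers, and scaffolds. Of 104 listed genes 96 were on the array and 80 above background, 8 rose (10%, all genes 18.7%), 7 fell (8.75%, all genes 6.87%) and 65 did not pass, with a median log2 fold change of -0.05. After quantile normalisation 4 rose and 10 fell, after centring 12 rose and 25 fell, and with values under 50 units raised to 50, 0 rose and 0 fell.

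The catenins, which tie classical cadherins to actin, had 6 members above background, 0 rose and 1 fell (median log2 fold change 0.82). Ctnnd1, or p120 catenin, which keeps cadherins at the surface, had 58.7 and 53.8 units in TRAP and 95.4 and 102 units in input (log2 fold change -0.81, limma adjusted p = 0.0145). Of 8 other cadherin superfamily genes, 1 rose and 1 fell. Clstn3, a synaptic calsyntenin, had 173 and 301 units in TRAP, against 35.1 and 37.1 units in input, at least 4.56-fold higher (limma adjusted p = 0.0317). Fat1, a giant protocadherin, had 235 and 278 units in TRAP, against 711 and 955 units in input (log2 fold change -1.69, limma adjusted p = 0.0297).

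Among 18 other immunoglobulin adhesion molecules 2 rose, 0 fell and 16 did not pass. Igsf8, a partner of tetraspanins, had 3203 and 3789 units in TRAP and 853 and 990 units in input (log2 fold change 1.92, limma adjusted p = 0.0109). Cadm3, a synaptic nectin-like molecule, had 1534 and 1323 units in TRAP, against 518 and 657 units in input (log2 fold change 1.29, limma adjusted p = 0.0341). Of 28 ligands and synapse organisers 3 rose (Nxph3, Flrt2 and Slitrk5) and 3 fell (Il1rapl1, Slitrk2 and Adgrl3). Nxph3, a neurexophilin that binds alpha neurexins, had 115 and 85.8 units in TRAP and 24.9 and 27.4 units in input, at least 1.98-fold higher (limma adjusted p = 0.0194). Il1rapl1, a postsynaptic organiser, had 6.24 and 5.85 units in TRAP, against 72.1 and 78.2 units in input, at least 1.5-fold lower (limma adjusted p = 0.000708). Slitrk2, likewise synaptic, had 6.51 and 9.2 units in TRAP, against 114 and 80.7 units in input, at least 1.92-fold lower (limma adjusted p = 0.0143).

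Of 20 scaffolds 2 rose and 2 fell. Apba1, or Mint1, a presynaptic adaptor that binds neurexin through its complex with CASK, had 3911 and 5428 units in TRAP and 653 units on both input arrays (log2 fold change 2.82, limma adjusted p = 0.0108). Magi1, a junctional scaffold, had 964 and 1222 units in TRAP, against 509 and 503 units in input (log2 fold change 1.10, limma adjusted p = 0.0336). Ank3, which encodes ankyrin G of the axon initial segment and nodes, had 2213 and 1644 units in TRAP, against 5054 and 4668 units in input (log2 fold change -1.35, limma adjusted p = 0.0371). Kcna2, a juxtaparanodal potassium channel gathered by CASPR2, was the other that fell (3288 and 3437 units in TRAP, 5352 and 4957 units in input).

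**Figure D5:**
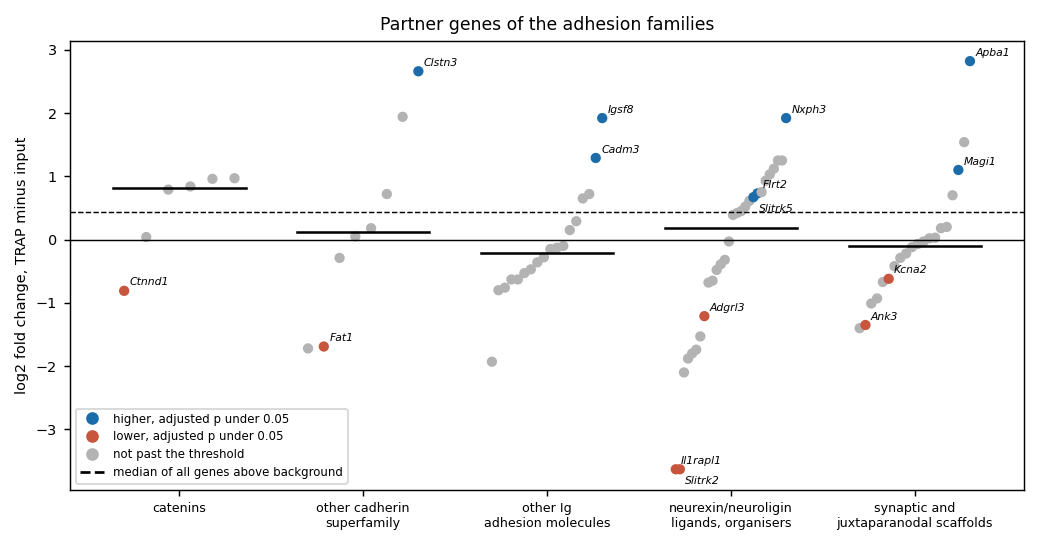
Log2 fold change (TRAP minus input, y axis) of the 80 partner genes above background in 5 lists, with coloured, named points for genes that passed the test, solid bars at each list's median and a dashed line at the median of all genes above background (0.44). In these lists 8 genes rose, up to 2.82 for Apba1, and 7 fell, and the lowest points (Il1rapl1 and Slitrk2) were under 50 units in TRAP, where only bounds of 1.5-fold and 1.92-fold hold.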

How the data were processed

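The authors amplified small amounts of RNA from 2 TRAP and 2 input samples and hybridised them to Affymetrix mouse arrays. They deposited log2 expression values from GCRMA, which corrects background by probe sequence and summarises probes into probe sets. Its version was not given in the sources used here. The array medians were 7.28 and 7.13 units in TRAP and 10.2 and 10.1 units in input, so the 4 arrays do not share 1 distribution. The arrays give no read depth, and their number limits the precision. From these values, 64 control probe sets were left out, and 45037 were fitted with limma 3.58.1 in R 4.3.3 (lmFit, eBayes, 2 residual degrees of freedom), TRAP minus input. The prior of eBayes had 0.317 degrees of freedom. Genes were named from the platform annotation; probe sets with several symbols were left out. Of these probe sets 21547 were identical on both TRAP arrays and 18790 on both input arrays. The 50-unit level was carried over from an earlier analysis of these data, and values under it were set to 50 for a bound ("at least") where both arrays of the lower fraction were under it. Genes are named where they passed the test, were among the 3 brightest, 2 most raised or 2 most lowered of a family, or were neurexins or neuroligins, and partner genes up to 3 a list by size of change; any others shown are for completeness. The 70 genes and the lists were chosen with earlier results of these data known. RefSeq (GRCm38.p6) served for gene order and promoters, all 70 genes matching by gene ID. On simulated data the fit returned fold sizes close to those put in but called few of the changed probe sets. Alternatives were quantile normalisation, centring, other backgrounds, an intensity trend, gene means and leaving out each array.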

Additional observations from a re-analysis of the deposited data

Results flagged for a closer look

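The 6 probe sets that carry 9 or 14 symbols of the alpha protocadherin cluster entered no comparison above, since no single gene can be named from them. In 3 of them the level was above background and both TRAP arrays were above both input arrays, as for 52.3% of all genes above background. These 3 are annotated to the same 14 genes, so they are not separate observations. The brightest had 2281 and 3097 units in TRAP and 1701 and 1703 units in input (log2 fold change 0.64, limma adjusted p = 0.108). Another had 402 and 812 units in TRAP, against 250 and 156 units in input (log2 fold change 1.53, limma adjusted p = 0.138). The third had 255 and 388 units in TRAP, against 184 and 248 units in input (log2 fold change 0.56, limma adjusted p = 0.281). None passed the threshold. On all 3, TRAP replicate 4 was the highest of the 4 arrays.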

How the results depend on the processing

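No paired analysis was possible because the fractions share only 1 replicate number. Quantile normalisation moved the median log2 fold change of all genes above background to 0.04 and centring to 0.03, against 0.44 as deposited, and that of the adhesion genes to 0.14 under both, against 0.55. Adhesion genes that rose were 4 as reported, 2 after quantile normalisation (with 9 lower), 0 with values raised to 50 units, and 0 to 4 when each array was left out. Those that fell were 9 as reported, 4 with values raised to 50 units, and 2 to 4 when each array was left out, where 1 fraction alone gives the spread. The median then ran between 0.15 and 0.69. With values raised to 50 most probe sets are identical within fractions, which changes the spread that limma estimates. Of the 13 called genes, 11 passed after quantile normalisation (not Cdh11 and Pcdh8) and 13 after centring. In the fit of probe sets above background only, 11 passed (not Cdh2 and Pcdh9), and with an intensity trend 13 did. The counts also went up in some settings: 5 rose and 12 fell after centring, and 6 rose and 10 fell with the trend. The 4 that rose without input replicate 2 were Cdh4, Nlgn2, Nlgn3 and Nrxn2, none of them among the 4 reported. Partner genes that rose were 8 as reported, 4 after quantile normalisation, 0 with values raised to 50, 14 with the trend and 2 to 5 with an array left out. Those that fell were 7 as reported, 25 after centring, 0 with values raised to 50, 4 at a background of 100 units and 3 to 6 with an array left out. Cntn1 turned negative after quantile normalisation (-0.35), centring (-0.22), averaging its probe sets (-0.05) and without input replicate 1 (range with each array left out -0.09 to 0.48), and Nlgn3 after quantile normalisation (-0.25), centring (-0.27) and without input replicate 1 (range -0.40 to 0.68). The causes were not tested.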
